A study of Oryctolagus cuniculus with 6 samples.

Results

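Voltage-gated sodium channels start the action potential of an axon, and voltage-gated potassium channels end it. In a myelinated nerve the sodium channels are packed at the nodes of Ranvier, and potassium channels of the KCNA family lie under the myelin beside the node, where adhesion molecules of axon and Schwann cell hold both in place. Most mRNA for axonal channels is kept in the cell bodies of neurons, which lie outside the nerve, so that the RNA of a nerve piece comes mainly from Schwann cells, fibroblasts, vessels, immune cells and whatever tissue was cut out with it. In bulk tissue of this kind, fewer cells of a type and less RNA per cell cannot be told apart.

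The genes described here were chosen by symbol, as SCN followed by a number and A or B, or as KCN followed by a subfamily letter and a number. They had to hold 10 or more counts in at least 3 of the 6 libraries. Of the 17396 genes in the files, 94 carried such a symbol, 13 of them SCN and 81 KCN. The count rule kept 63, with 10 SCN and 53 KCN genes, and all 63 were tested. The KCN symbols also take in channels that are not opened by voltage, namely the inward rectifiers, the two-pore channels and some calcium-activated channels, as well as auxiliary subunits that form no pore of their own. SCN4A, the sodium channel of skeletal muscle, was set apart, which left 62 channel genes for the counts below. Of the 63 genes, 45 held 10 or more counts in all 6 libraries. KCNH1 and KCNMB2 met the rule through the FNI libraries alone, and 0 genes met it through the FNI+I-125 libraries alone.

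The study compared transected facial nerves with and without an I-125 seed, a small sealed source of low-energy radiation used in brachytherapy. All 6 rabbits were wild type male Japanese white rabbits of 3 to 4 months, and in all of them the main trunk of the left facial nerve had been cut. The FNI group (facial nerve injury) had 3 rabbits with the cut alone, and the FNI+I-125 group had 3 rabbits that also received 1 seed of 0.8 mCi near the nerve. The nerves were taken on day 14, with 1 library per rabbit, so that p-values measure the spread between these 3 rabbits a group. The methods mention no inactive seed in FNI, so the radiation and the presence of a seed cannot be told apart. Libraries from uncut nerves were not analysed here.

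Total counts ran from 16031151 to 16798012 per library, and the counts were scaled to a common library size, as CPM (the reads of a gene relative to all reads of its library), with edgeR's TMM factors, which ran from 0.923 to 1.06. FNI replicate 3 stood apart, with a Pearson's r of log2 CPM of 0.794 to 0.884 against the other libraries. The labelled tissue showed its Schwann cell markers in every library, but at very different levels. The summed CPM of 8 myelin genes was 6531, 2952 and 39428 for the FNI replicates 1, 2 and 3, and 521, 3254 and 324 for those of the FNI+I-125 group, in the order kept for all values below. Skeletal muscle genes (8 genes) summed to 25.5 to 77.3 CPM in FNI, to 4252 and 3669 CPM in FNI+I-125 replicates 1 and 2 and to 19.4 CPM in FNI+I-125 replicate 3. Gland epithelium genes (9 genes) summed to 48728 CPM in FNI replicate 2 against 30.7 to 2976 CPM elsewhere. DNASE1 alone gave 48086 CPM of the sum in FNI replicate 2. AQP5 and KRT18 were also highest in that library, but KRT7, KRT8, KRT19, EPCAM and ELF5 were highest in other libraries. The 6 macrophage genes summed to 143 to 575 CPM in FNI and 834 to 1152 CPM in FNI+I-125. Of 10 listed markers of neurons and axons, 2 had enough counts to be tested, and the 9 in the files summed to 9.15 to 26.8 CPM, with RBFOX3, a marker of neuronal nuclei, at 0 to 0.567 CPM. The part of these cell types in the channel values was not tested, except that counts were repeated without the libraries concerned.

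As a class, the 62 channel genes did not move in one direction. With edgeR's quasi-likelihood test 0 of them met the study's criterion for calls, an adjusted p under 0.05 with a |log2 FC| of 1.5 or more, and the background over all 14003 genes tested was also 0.0%. At an unadjusted p under 0.05, 5 channel genes were higher with the seed (8.06%, against 9.23% of all genes tested) and 5 were lower (8.06%, against 7.73%), while 52 were neither. These shares lie near the background. The 5 higher genes were KCNC4, KCNK6, KCNK12, KCNMA1 and SCN3B, and the 5 lower genes were SCN4B, KCNIP2, KCNS1, KCNH1 and KCNMB2, of which the last 2 are the genes that met the count rule through the FNI group alone. The groups did not overlap for 6 higher channel genes (9.68%, against 14.8% of all genes) and 9 lower ones (14.5%, against 12.3%). KCNH1 and KCNMB2 are also among these 9. The smallest adjusted p among the channel genes was 0.28. With DESeq2, whose background was 2.98%, 2 channel genes of 57 with an adjusted p were called, KCNC4 as higher (log2 fold change 3.35, adjusted p = 0.044) and SCN4B as lower (log2 fold change -1.96, adjusted p = 0.0343). The even split of 5 and 5 changed with some single libraries left out. Without FNI+I-125 replicate 2 edgeR gave 0 higher and 11 lower channel genes of 62 at an unadjusted p under 0.05. In that fit 6.03% of all genes were lower. Without FNI+I-125 replicate 1 it gave 1 and 4 (3.71% of all genes lower). Without FNI replicate 2 it gave 3 and 7 (7.51% lower), and without FNI replicate 3 it gave 3 and 4 (5.24% lower). Leaving out FNI+I-125 replicates 1 and 2 together left FNI+I-125 replicate 3 alone in its group, and the median log2 fold change was then -0.28.

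The median log2 fold change (FNI+I-125 against FNI) of the channel genes was 0.00, with 31 genes above 0 and 31 below (against 48.9% of all genes tested below 0), and that of all genes tested was 0.01. The middle part of the distribution was wider for the channel genes, with quartiles of -0.74 and 0.74 against -0.31 and 0.32 for all genes. Channel genes also had fewer counts, with a median over genes of 73.8 counts per library against 378.0. Summed over the 62 genes, the level was 633, 727 and 658 CPM in FNI and 530, 619 and 676 CPM in FNI+I-125, so the ranges of both groups overlapped.

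**Figure D1:**
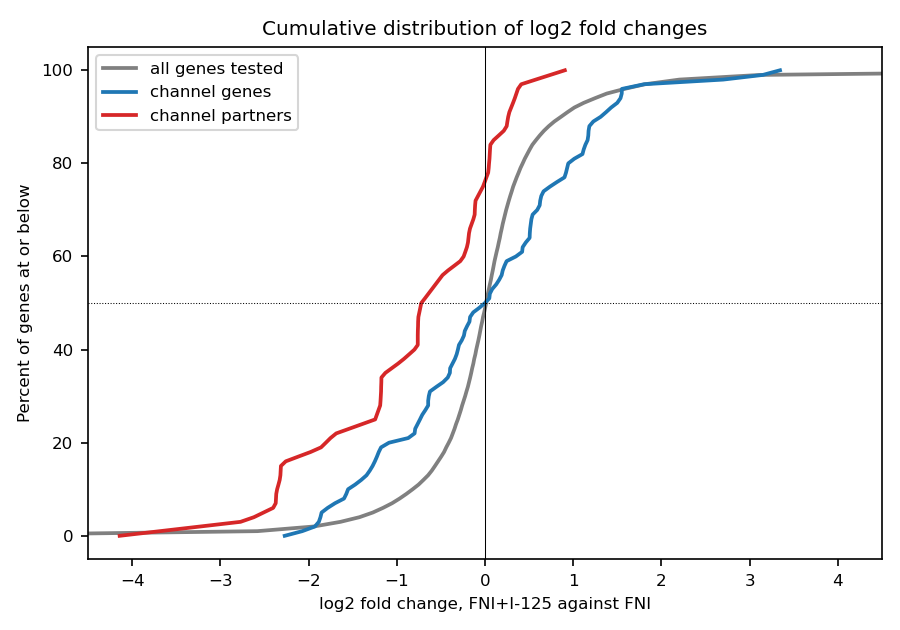
Cumulative distribution of log2 fold changes (x axis, FNI+I-125 against FNI, on the log2 scale) for the 62 channel genes, the 33 tested channel partners and all 14003 genes tested (y axis, percent of genes at or below the value). The curves of channel genes and of all genes cross near 0 at their medians of 0.00 and 0.01, and the curve of the partners lies to the left, with a median of -0.72.

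**Figure D2:**
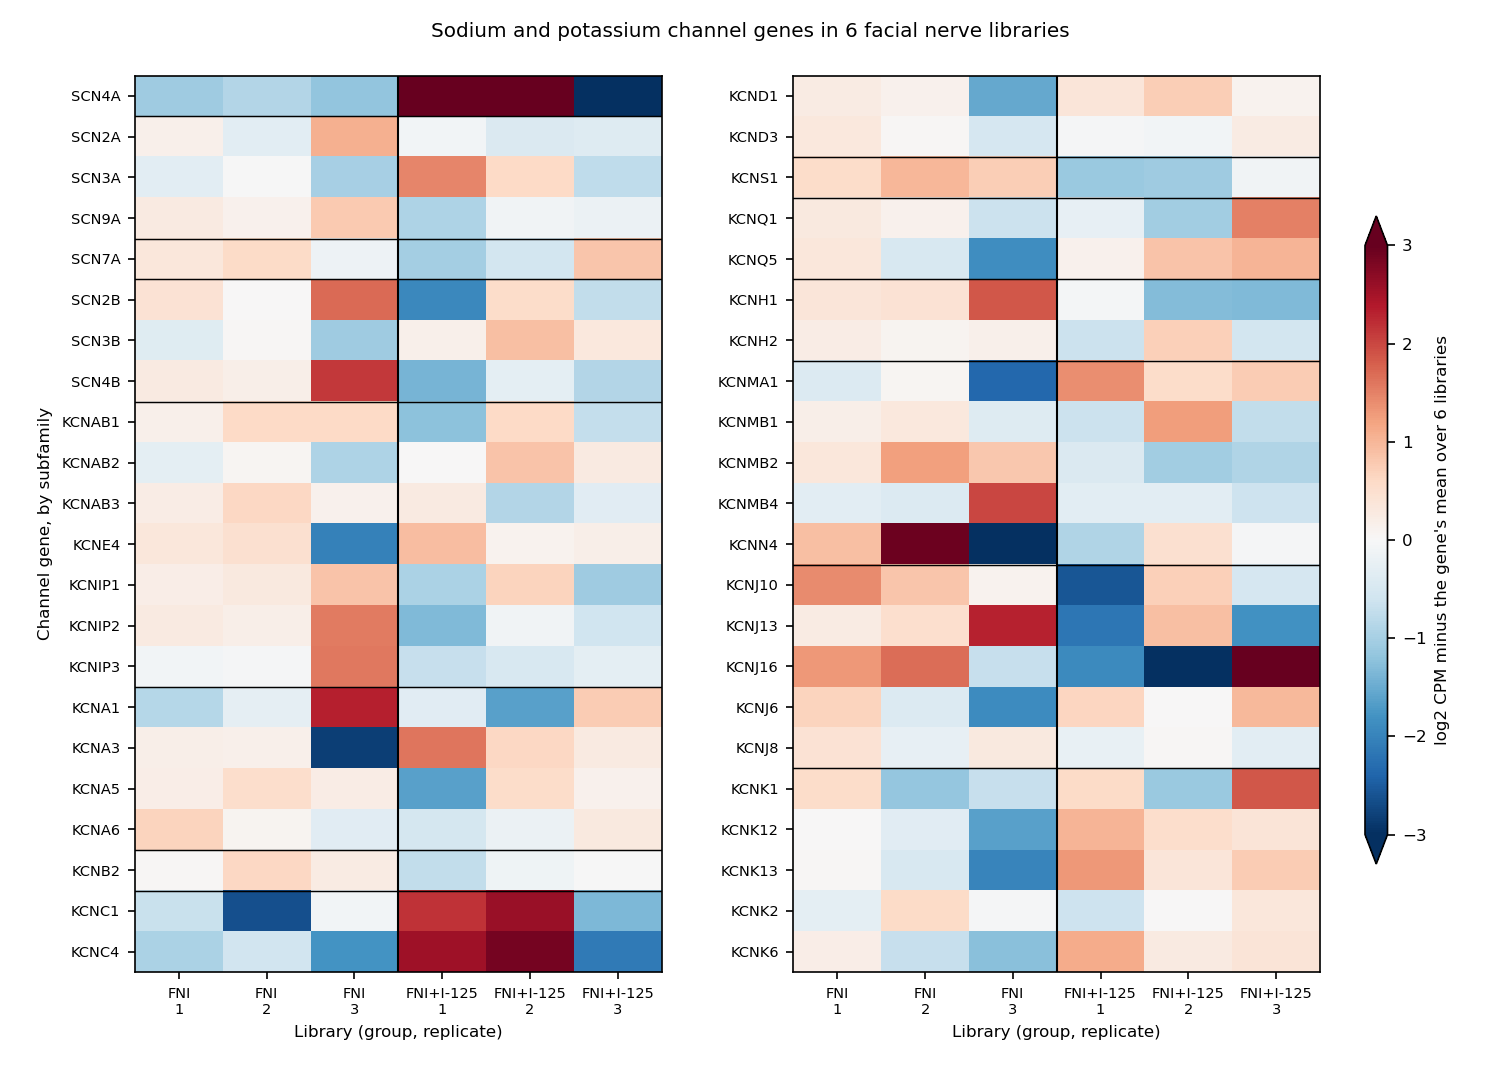
Log2 CPM of 44 channel genes, those named in the text, in each of the 6 libraries, minus the mean of the gene over the 6 libraries (colour, blue below and red above the mean, with values past 3 drawn at the end of the scale). Thin lines part the subfamilies and the vertical line parts the FNI from the FNI+I-125 libraries. FNI replicate 3 holds most of the deep colours of the FNI group, in both directions, and SCN4A, KCNC1 and KCNC4 are red in FNI+I-125 replicates 1 and 2 alone.

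Among the pore-forming sodium channel subunits of neurons, SCN2A, SCN3A and SCN9A had enough counts. At an unadjusted p of 0.05, 0 of these 3 passed, against 9.23% of all genes tested as higher and 7.73% as lower. SCN9A, the channel known from pain-sensing neurons, stood at 3.57, 3.21 and 5.14 CPM in FNI and 1.5, 2.74 and 2.58 CPM in FNI+I-125. The FNI+I-125 libraries were all below those of FNI, with means of 3.98 ± 1.03 and 2.28 ± 0.673 CPM (SD, n = 3 each). The log2 fold change of SCN9A was -0.80 (SE 0.37, edgeR unadjusted p = 0.0711, adjusted p = 0.316), and the exact permutation test gave p = 0.1, the smallest that 3 libraries against 3 allow. It stayed between -0.99 and -0.58 with each library left out in turn.

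SCN2A, found in brain axons, had 1.17, 0.819 and 2.30 CPM in FNI and 0.980, 0.730 and 0.763 CPM in FNI+I-125. The groups overlapped through FNI replicate 2, and the log2 fold change was -0.79 (SE 0.51, edgeR adjusted p = 0.424). SCN3A, a channel of developing neurons that sensory neurons take up again after injury, had 1.41, 1.76 and 0.827 CPM against 5.03, 2.74 and 0.998 CPM. FNI+I-125 replicates 1 and 2, the libraries with muscle transcripts, were the 2 highest, and the third lay within the FNI range. Its log2 fold change was 1.13 (SE 0.65, edgeR adjusted p = 0.381), and -0.45 when FNI+I-125 replicates 1 and 2 were left out. SCN8A, the main channel of mature nodes, held 1 count in FNI replicate 3, 1 count in FNI+I-125 replicate 3 and 0 in the other libraries, which allows up to 3 counts in each of those, for counting error only. SCN10A and SCN11A, channels of sensory neurons, held at most 9 and 4 counts in a library.

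SCN7A encodes a sodium-sensing relative of these channels that is known from non-myelinating Schwann cells. It stood at 143, 170 and 102 CPM in FNI and at 56.0, 76.9 and 201 CPM in FNI+I-125. The FNI+I-125 group held both the lowest values and the highest one, so the groups overlapped and the log2 fold change of -0.31 (SE 0.50, edgeR adjusted p = 0.751) was smaller than its error. Leaving out FNI+I-125 replicate 3 gave -1.06 and leaving out FNI+I-125 replicate 1 gave 0.01. The summed markers of repair and non-myelinating Schwann cells (7 genes) had the same order within FNI+I-125, at 261, 610 and 1005 CPM, and stood at 940, 915 and 451 CPM in the FNI group.

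Beta subunits bind the pore-forming subunit and act in cell adhesion, and here SCN4B was lower and SCN3B higher at an unadjusted p under 0.05. SCN4B stood at 21.6, 20.2 and 77.4 CPM in FNI and 6.73, 14.5 and 9.69 CPM in FNI+I-125. All 3 FNI+I-125 libraries lay below all FNI libraries, and FNI replicate 3 was far above the rest. The means were 39.8 ± 32.6 and 10.3 ± 3.95 CPM (SD, n = 3 each), for a log2 fold change of -1.94 (SE 0.63, edgeR unadjusted p = 0.021, adjusted p = 0.28). Without FNI replicate 3, the library with the highest myelin marker sum, the log2 fold change of SCN4B was -1.03, the smallest difference of the 6 fits that left out 1 library. SCN2B, which is close to SCN4B in sequence and likewise forms a disulfide bond with the pore-forming subunit, had 11.7, 8.69 and 28.3 CPM against 2.16, 12.7 and 5.11 CPM. Its groups overlapped through FNI+I-125 replicate 2, with a log2 fold change of -1.28 (SE 0.75, edgeR adjusted p = 0.383).

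SCN3B was at 5.62, 7.43 and 3.37 CPM in FNI and at 8.11, 13.6 and 9.10 CPM in FNI+I-125. The groups did not overlap, though their nearest libraries were close, and the means were 5.47 ± 2.04 and 10.3 ± 2.91 CPM (SD, n = 3 each). The log2 fold change of SCN3B was 0.91 (SE 0.37, edgeR unadjusted p = 0.0486, adjusted p = 0.293), and 1 of the 6 fits that left out a library kept its unadjusted p under 0.05.

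SCN4A had a larger log2 fold change than any of the other 62 channel genes. It held 11, 12 and 10 counts in FNI, 204 and 241 in FNI+I-125 replicates 1 and 2 and 1 count in FNI+I-125 replicate 3, or 0.644, 0.756 and 0.591 CPM against 13.3, 14.7 and 0.0587 CPM. The pair of high libraries is the pair with the muscle marker sums of 4252 and 3669 CPM, and the third FNI+I-125 library was below all FNI libraries. The log2 fold change was 3.80 (SE 1.47, edgeR unadjusted p = 0.0413, adjusted p = 0.286), while the fit without FNI+I-125 replicate 3 gave 4.38 with an adjusted p of 0.0176. Leaving out FNI+I-125 replicates 1 and 2 turned it to -3.38, a value that rests on the 1 count of FNI+I-125 replicate 3.

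**Figure D3:**
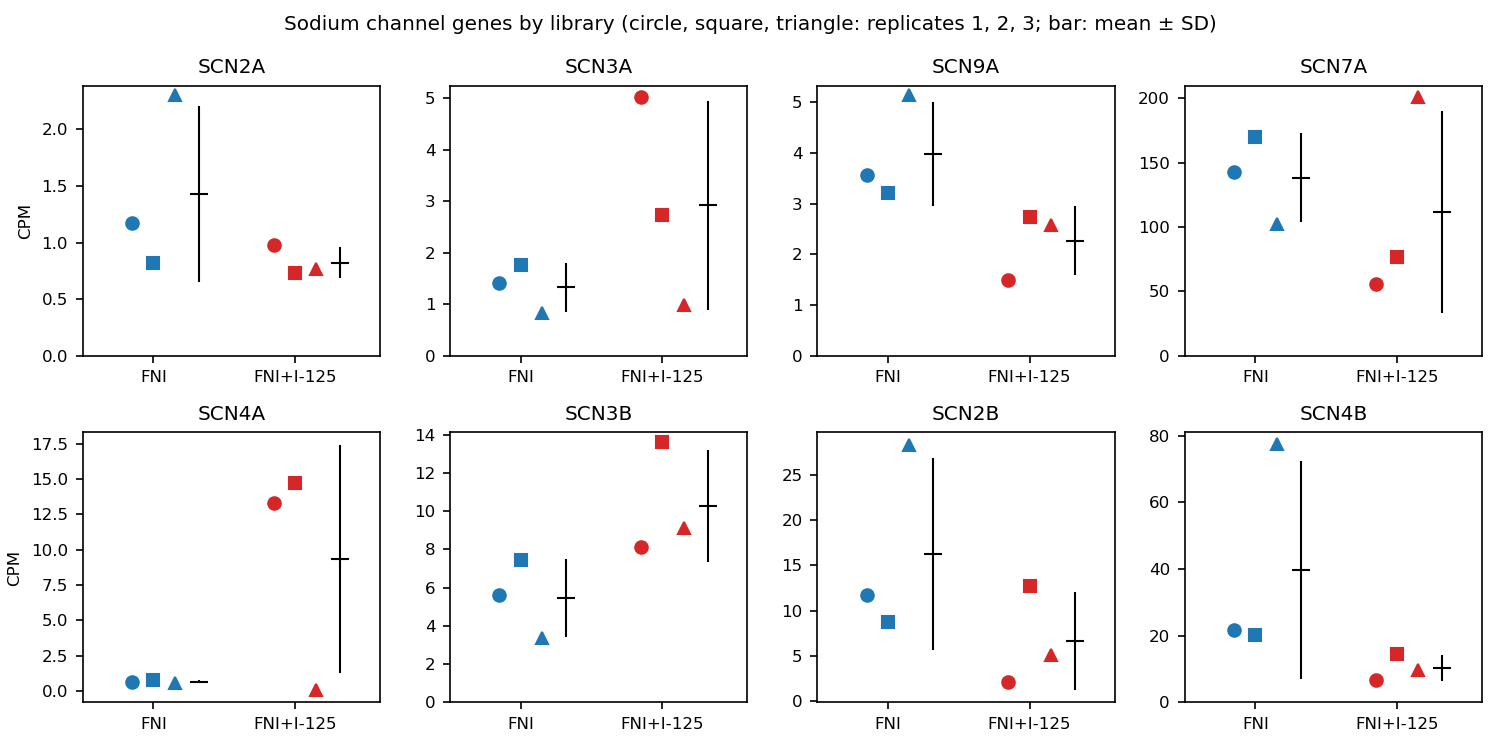
CPM (y axis, linear, a separate scale for each gene) of 8 sodium channel genes in the FNI and FNI+I-125 groups (x axis). Points are libraries, with circle, square and triangle for replicates 1, 2 and 3, and the black bars give mean and SD of 3 libraries. The groups are apart for SCN9A, SCN3B and SCN4B, and the high SCN4A values are those of 2 FNI+I-125 libraries.

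Of the KCNA family, whose members form the fast potassium channels beside the node and those of lymphocytes, 4 genes were kept. At an unadjusted p of 0.05, 0 of them passed, against 9.23% of all genes tested as higher and 7.73% as lower. KCNA1, the subunit of the juxtaparanode, was at 6.56, 9.83 and 60.4 CPM in FNI and 9.41, 3.77 and 20.1 CPM in FNI+I-125. FNI replicate 3 was far above the others, and the FNI+I-125 libraries lay on both sides of the other FNI libraries. KCNA1 had a log2 fold change of -1.20 (SE 1.01, edgeR adjusted p = 0.525) which became 0.41 without FNI replicate 3. KCNA2, its partner at the juxtaparanode, held 13, 0 and 4 counts against 25, 2 and 6 counts and missed the count rule with 2 libraries of 10 or more. KCNA3, the channel of T cells and macrophages, had 3.22, 3.15 and 0.296 CPM against 8.82, 4.44 and 3.46 CPM. The groups did not overlap, but by little, and the log2 fold change of 1.32 (SE 0.85, edgeR unadjusted p = 0.17, adjusted p = 0.424) was not past the threshold. The 6 T cell markers summed to 10.2, 20.6 and 2.90 CPM in FNI and to 20.2, 61.8 and 17.1 CPM in FNI+I-125. FNI replicate 3 was lowest for both, as for 31.6% of all genes tested. The T cell sum was highest in FNI+I-125 replicate 2, and KCNA3 in FNI+I-125 replicate 1. Unlike KCNA3, the T cell sums overlapped between the groups. KCNA5 and KCNA6 had log2 fold changes of -0.40 and -0.30 and overlapped between the groups.

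KCNAB1, KCNAB2 and KCNAB3 encode the cytoplasmic beta subunits of the KCNA channels, and KCNAB2 is the form found beside the node. KCNAB2 stood at 10.8, 13.9 and 6.97 CPM against 13.4, 24.3 and 16.1 CPM, with FNI+I-125 replicate 1 just inside the FNI range. The log2 fold change was 0.77 (SE 0.34, edgeR unadjusted p = 0.0656), and those of KCNAB1 and KCNAB3 were -0.70 and -0.64, also without a call. KCNE4, a small membrane subunit, was at 20.2, 22.2 and 3.78 CPM against 30.6, 17.2 and 17.8 CPM (log2 fold change 0.51, SE 0.64), with FNI replicate 3 alone far below the rest.

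The Kv3 channels of the KCNC family allow rapid firing, and KCNC4 is also a channel of skeletal muscle. KCNC4 was at 0.937, 1.26 and 0.473 CPM in FNI and at 11.9, 15 and 0.352 CPM in FNI+I-125. As for SCN4A, FNI+I-125 replicates 1 and 2 were far above the rest and FNI+I-125 replicate 3 was the lowest of the 6. The log2 fold change was 3.34 (SE 1.22, edgeR unadjusted p = 0.0339, adjusted p = 0.281), and -1.35 without FNI+I-125 replicates 1 and 2. KCNC1, named after its values were seen, held 50 and 73 counts in these libraries, 3 in FNI+I-125 replicate 3 and 6, 0 and 10 in FNI, and had a log2 fold change of 3.02 (SE 1.39, edgeR unadjusted p = 0.0724). These are the 2 channel genes of 62 (3.23%, against 0.878% of all genes tested) for which both libraries were at least 2 times above each of the others, a pattern defined after values were seen. KCNA7 and KCNJ11, which are both known from muscle, missed the count rule with the same shape. KCNA7 held 5, 4 and 0 counts in FNI and 56, 63 and 3 in FNI+I-125, and KCNJ11 held 2, 2 and 8 against 67, 54 and 1.

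The KCND channels carry a rapidly inactivating current at membrane potentials below the firing threshold, and the KChIP proteins (KCNIP genes) and DPP6 are their auxiliary subunits. KCND3 stood at 15.8, 12.9 and 8.87 CPM against 12.4, 11.8 and 14.9 CPM and KCND1 at 2.93, 2.71 and 0.768 CPM against 3.20, 4.2 and 2.64 CPM. Both overlapped between the groups, with log2 fold changes of 0.06 (SE 0.25) and 0.65 (SE 0.55). KCNIP2 had 6.5, 6.17 and 16.2 CPM in FNI and 2.09, 5.05 and 3.52 CPM in FNI+I-125. Every FNI+I-125 library was below every FNI library, and FNI replicate 3 was again the highest. The means of KCNIP2 were 9.62 ± 5.69 and 3.56 ± 1.48 CPM (SD, n = 3 each), for a log2 fold change of -1.43 (SE 0.52, edgeR unadjusted p = 0.0338, adjusted p = 0.281) that was -0.85 without FNI replicate 3. KCNIP3, chosen after values were seen, had a log2 fold change of -1.24 (SE 0.56, edgeR unadjusted p = 0.0676) without overlap and of -0.46 without FNI replicate 3, and KCNIP1 had -0.75 with overlap. All 3 KCNIP genes were thus below 0 on the log2 scale, with 1 of them past the unadjusted threshold.

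The KCNB genes form delayed rectifier channels, and the KCNS and KCNG subunits are silent on their own and alter KCNB channels. KCNB2 had 1.11, 1.70 and 1.30 CPM against 0.588, 0.974 and 1.06 CPM, without overlap (log2 fold change -0.64, SE 0.42, edgeR adjusted p = 0.429). KCNS1 was at 1.93, 2.65 and 2.19 CPM in FNI and 0.523, 0.548 and 1.17 CPM in FNI+I-125. The groups were apart and FNI replicate 3 lay between the other FNI libraries. These values rest on low counts, 33, 42 and 37 in FNI and 8, 9 and 20 in FNI+I-125. The means of KCNS1 were 2.26 ± 0.361 and 0.748 ± 0.369 CPM (SD, n = 3 each), for a log2 fold change of -1.58 (SE 0.46, edgeR unadjusted p = 0.0137, adjusted p = 0.28). Leaving out single libraries gave -2.07 to -1.38, and the unadjusted p stayed under 0.05 in 5 of 6 such fits.

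The KCNQ genes include the slow channels that hold neurons near rest, and the KCNH genes are those of the ether-a-go-go family. KCNH1, which met the count rule through the FNI libraries alone, is taken apart. Of the other genes of both families, 0 had an unadjusted p under 0.05, against 9.23% of all genes tested as higher and 7.73% as lower. KCNQ5 was at 3.46, 1.89 and 0.650 CPM against 2.94, 4.99 and 5.58 CPM (log2 fold change 1.17, SE 0.63, edgeR unadjusted p = 0.111). The groups of KCNQ5 overlapped. KCNQ3, a subunit known from nodes, held at most 1 count in a library. KCNH1 held 11, 11 and 35 counts in FNI and 7, 2 and 2 in FNI+I-125, with a log2 fold change of -2.27 (SE 0.82). The log2 fold change of KCNH1 was -1.53 without FNI replicate 3. These counts are small. The gene was kept through the FNI libraries alone, the group where it was higher, so its difference is given as a description. KCNH2, the channel that repolarizes the heart, stood at 4.74, 4.28 and 4.55 CPM against 2.55, 6.76 and 2.70 CPM (log2 fold change -0.18, SE 0.44). The FNI libraries of KCNH2 lay close together, and the FNI+I-125 libraries lay on both sides of them.

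KCNMA1 forms the large-conductance calcium-activated (BK) channel, which is opened by voltage and calcium together, and the KCNMB genes encode its beta subunits. KCNMA1 was at 13.2, 18.1 and 3.31 CPM in FNI and 46.3, 25.6 and 29.6 CPM in FNI+I-125. All FNI+I-125 libraries were above all FNI libraries, and FNI replicate 3 was far below the others. The means were 11.5 ± 7.55 and 33.8 ± 11 CPM (SD, n = 3 each), for a log2 fold change of 1.55 (SE 0.61, edgeR unadjusted p = 0.0438, adjusted p = 0.287) and of 1.09 without FNI replicate 3. KCNMB2 met the count rule through the FNI libraries alone, the group where it was higher, so its difference is given as a description. It held 17, 31 and 24 counts against 8, 5 and 6 counts, or 1.46 ± 0.480 and 0.393 ± 0.115 CPM (SD, n = 3 each). The log2 fold change of KCNMB2 was -1.87 (SE 0.48). Fits that left out a library gave values from -2.12 to -1.60.

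KCNMB1, the beta subunit of smooth muscle, was at 16.9, 18.6 and 11.3 CPM against 9.54, 35.7 and 8.81 CPM, with FNI+I-125 replicate 2 the highest and both other FNI+I-125 libraries the lowest (log2 fold change 0.21, SE 0.59). The smooth muscle markers (6 genes) also had their highest sum in FNI+I-125 replicate 2, at 4513 CPM against 2725 to 3517 CPM elsewhere. KCNMB4, the beta subunit of neurons, was named after its values were seen and had 4.63, 4.28 and 23.5 CPM in FNI and 4.58, 4.56 and 3.70 CPM in FNI+I-125. Apart from FNI replicate 3 the 5 libraries lay within 1 CPM of each other, and the log2 fold change of -1.34 (SE 0.72) was -0.08 without that library. KCNN4, the intermediate-conductance channel of secretory epithelia and immune cells, ranged from 1.65 CPM in FNI replicate 3 to 144 CPM in FNI replicate 2. FNI replicate 1 stood at 34.6 CPM and the FNI+I-125 libraries at 9.87, 25.7 and 18.1 CPM, so the highest and the lowest library were of the same group (log2 fold change -1.75, SE 1.29, edgeR adjusted p = 0.48). FNI replicate 2 was also the library with the gland epithelium sum of 48728 CPM, and FNI replicate 3 had the lowest gland sum. DNASE1 alone gave 48086 CPM of the sum in FNI replicate 2.

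The inward rectifiers (KCNJ), which let potassium pass at rest, had 9 genes and a median log2 fold change of 0.05. At an unadjusted p under 0.05, 0 were higher (against 9.23% of all genes tested) and 0 lower (against 7.73%). Without overlap, 0 were higher (against 14.8%) and 0 lower (against 12.3%). In a list of 9 genes these background shares come to few genes, so the counts of 0 do not set the family apart. KCNJ8, the pore of the ATP-sensitive channel of pericytes and vascular smooth muscle, was even across libraries, at 74.6, 47.1 and 68.2 CPM against 47.3, 57.3 and 44.7 CPM (log2 fold change -0.35, SE 0.21, edgeR adjusted p = 0.392). Its partner ABCC9, the sulfonylurea receptor, had 45.2, 49.1 and 50.5 CPM against 80.3, 54.1 and 40.0 CPM (log2 fold change 0.27, SE 0.26). Neither gene separated the groups. KCNJ10, the channel that glia use to take up potassium, had 12.0, 8.06 and 4.85 CPM against 0.654, 7.36 and 3.11 CPM. Its groups overlapped (log2 fold change -1.16, SE 0.82, edgeR adjusted p = 0.461). FNI+I-125 replicate 1, the library with the lowest sum of general Schwann cell markers (268 CPM), was the lowest. The order differed elsewhere, since FNI replicate 3, with the highest such sum (2428 CPM), had the lowest KCNJ10 value of the FNI group. KCNJ16, which pairs with KCNJ10 and was named after its values were seen, held 224 counts in FNI+I-125 replicate 3, 4 and 0 in FNI+I-125 replicates 1 and 2, and 59, 71 and 13 in the FNI libraries.

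The two-pore channels (KCNK), which carry background potassium currents, had 2 of 7 log2 fold changes below 0 (28.6%, against 48.9% of all genes tested), and their median on the log2 scale was 1.10. At an unadjusted p under 0.05, 2 of the 7 were higher (28.6%, against 9.23% of all genes tested) and 0 lower (against 7.73%), and 3 of 7 were higher without overlap (42.9%, against 14.8% of all genes tested). KCNK6, a channel known from macrophages, was at 38.9, 21.2 and 14.2 CPM in FNI and 74.1, 40.9 and 44.6 CPM in FNI+I-125, with means of 24.7 ± 12.7 and 53.2 ± 18.2 CPM (SD, n = 3 each). The highest FNI and the lowest FNI+I-125 library all but met, and the log2 fold change was 1.10 (SE 0.43, edgeR unadjusted p = 0.0416, adjusted p = 0.286). KCNK12, of the halothane-inhibited branch, had 8.37, 6.55 and 2.60 CPM against 17.1, 12.1 and 10.9 CPM, also without overlap (log2 fold change 1.19, SE 0.45, edgeR unadjusted p = 0.0399, adjusted p = 0.286). KCNK13, of the same branch and known from microglia, was named after its values were seen and had 1.58, 1.07 and 0.296 CPM against 3.99, 2.01 and 2.70 CPM (log2 fold change 1.55, SE 0.65, edgeR unadjusted p = 0.0534).

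In KCNK6, KCNK12, KCNK13 and KCNMA1, FNI replicate 3 was the lowest of the 6 libraries and FNI+I-125 replicate 1 the highest. The macrophage sum was likewise lowest in FNI replicate 3, at 143 CPM, and above every FNI library in all FNI+I-125 libraries, though its highest library was FNI+I-125 replicate 2. Other marker sums had the same lowest and highest library as these channel genes. Fibroblast markers summed to 47304 CPM in FNI replicate 3 and 130007 CPM in FNI+I-125 replicate 1. Markers of B and plasma cells summed to 10.2 and 837 CPM there. FNI replicate 3 was also the lowest library for 31.6% of all genes tested. The part of these cell types was not tested. Without FNI replicate 3 the log2 fold changes of these 4 genes were 0.80, 0.82, 1.10 and 1.09. KCNK2, a mechanosensitive channel found at nodes, was at 5.45, 9.95 and 6.5 CPM against 4.31, 6.70 and 8.51 CPM, with overlap and a log2 fold change of -0.16 (SE 0.36). KCNK4, the other two-pore channel of nodes, held at most 3 counts in a library.

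**Figure D4:**
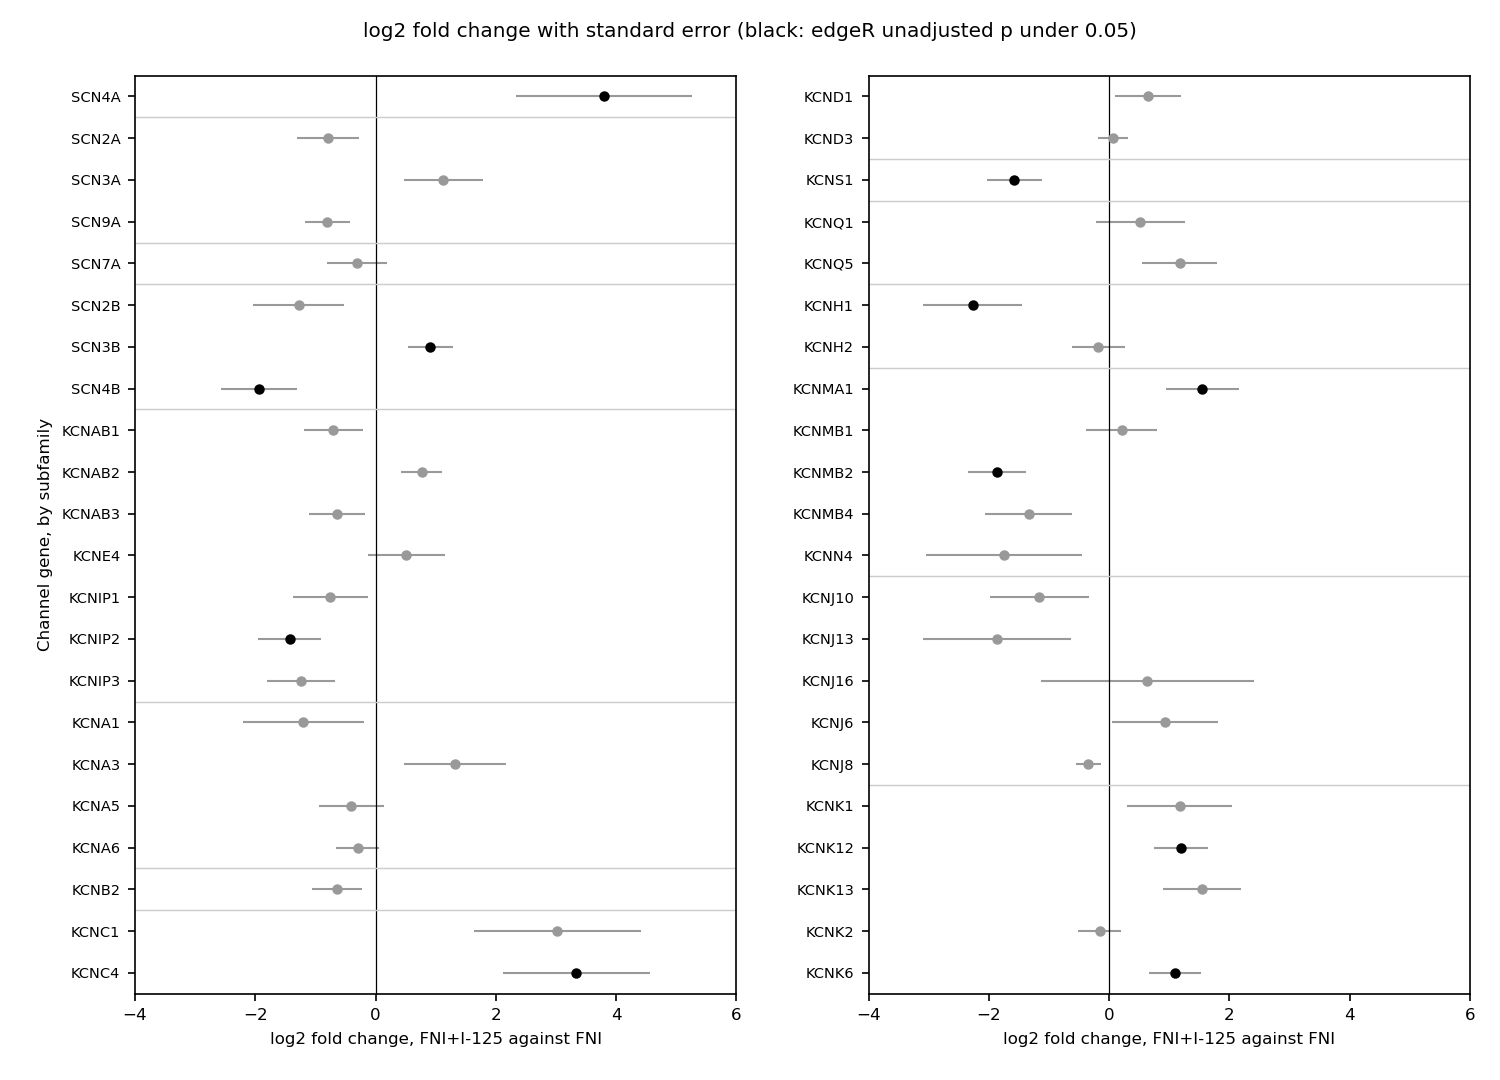
Log2 fold change of each of 44 channel genes, those named in the text (x axis, FNI+I-125 against FNI, edgeR), with bars of 1 standard error and lines between subfamilies. Black points have an unadjusted p under 0.05, which holds for SCN4A and 10 other channel genes, and 0 points pass the adjusted threshold. KCNH1 and KCNMB2 are among the black points but met the count rule through the FNI libraries alone.

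By library instead of by group, FNI replicate 3 held the highest value of 18 of the 62 channel genes (29.0%, against 30.0% of all genes tested) and the lowest value of 22 (35.5%, against 31.6%). In 8 channel genes (12.9%, against 4.78% of all genes) it was at least 2 times above every other library, a pattern defined after values were seen. These were SCN2B, SCN4B, KCNA1, KCNIP2, KCNIP3, KCNH1, KCNMB4 and KCNJ13. FNI replicate 3 also had the highest myelin sum, 39428 CPM against at most 6531 CPM elsewhere. The order of the other 5 libraries varied by gene. The next highest library was FNI replicate 1 for the myelin sum, SCN4B, KCNIP2 and KCNMB4. It was FNI replicate 2 for KCNIP3 and KCNH1, and FNI+I-125 replicate 2 for SCN2B and KCNJ13. For KCNA1 it was FNI+I-125 replicate 3, the library with the lowest myelin sum. The part of myelin in these values was not tested. FNI+I-125 replicate 3 was at least 2 times above all other libraries for KCNJ16, KCNK1 and KCNQ1 (4.84%, against 0.757% of all genes), and FNI replicate 2 for KCNN4 alone (1.61%, against 0.628%).

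**Figure D5:**
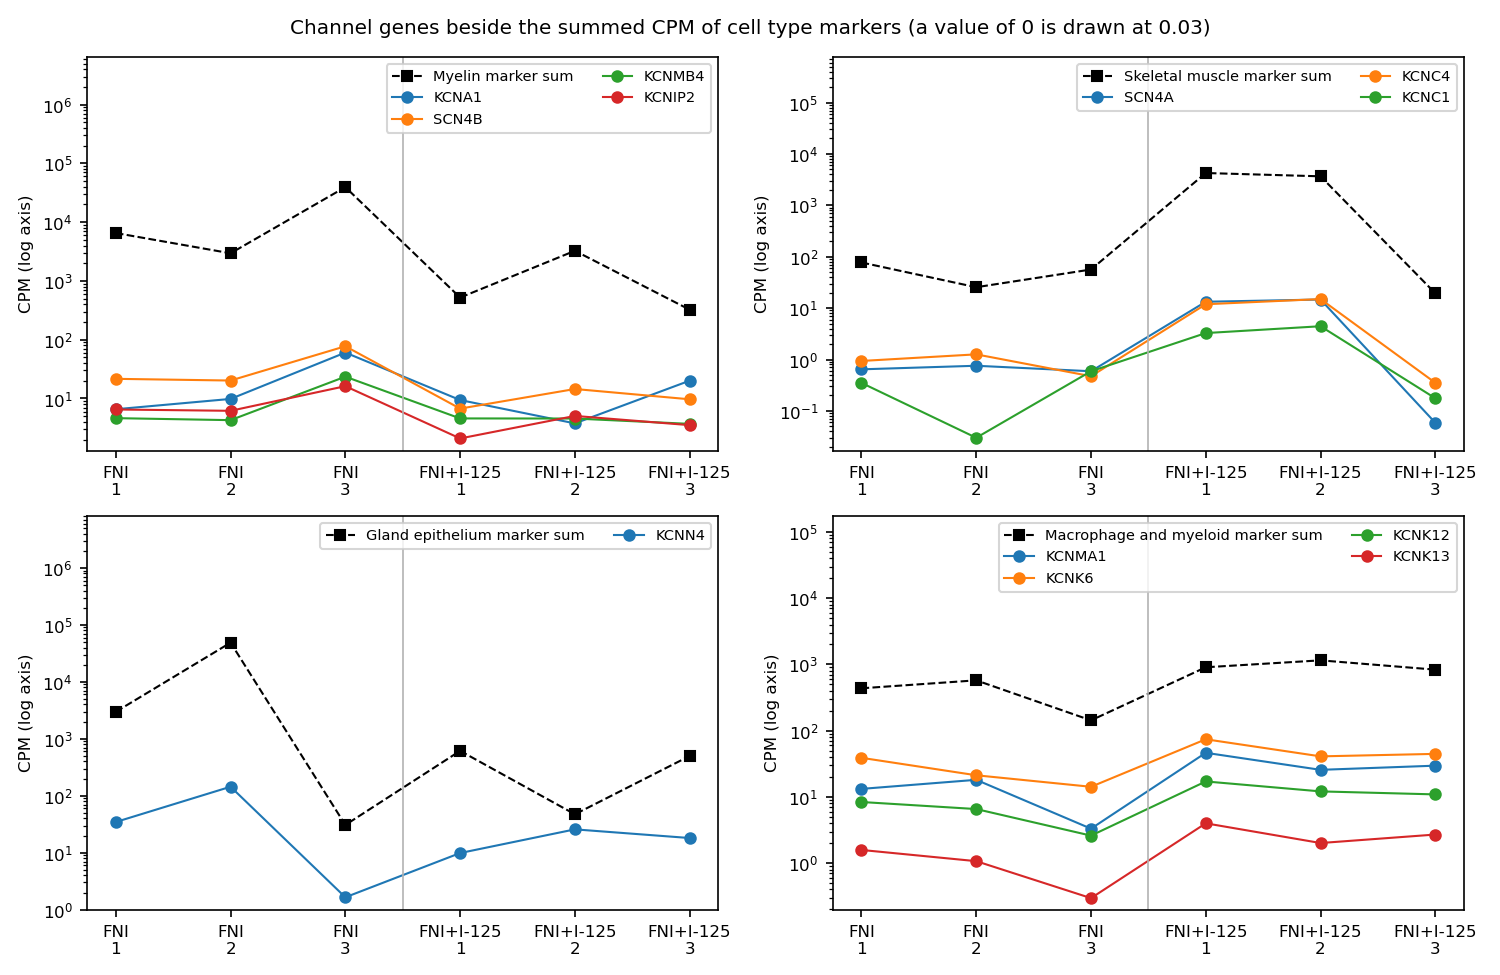
CPM (y axis, log scale) of selected channel genes and of the summed markers of a cell type (dashed line) in the 6 libraries (x axis). In FNI replicate 3 the myelin sum and KCNA1, SCN4B, KCNMB4 and KCNIP2 are at their highest. In FNI+I-125 replicates 1 and 2 the muscle sum and SCN4A, KCNC4 and KCNC1 are high together, and the 0 of KCNC1 in FNI replicate 2 is drawn at the foot of its panel. In FNI replicate 2 the gland sum, which there is mostly DNASE1, and KCNN4 peak. In FNI replicate 3 the macrophage sum and KCNMA1, KCNK6, KCNK12 and KCNK13 are lowest. Their part in the channel values was not tested.

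Proteins that place these channels in the membrane or bind them were taken as a list of channel partners. Of 38 listed partners 37 were in the files and 33 were tested, and 12 of the 33 were lower with the seed at an unadjusted p under 0.05 (36.4%, against 7.73% of all genes tested), 1 was higher (3.03%, against 9.23%) and 20 were neither. Without FNI replicate 3 the count of lower partners was 4 (12.1%, against 5.24% of all genes in that fit), and without FNI+I-125 replicate 1 it was 5 (15.2%, against 3.71%), both computed after values were seen. Log2 fold changes of the Schwann cell markers were also mostly below 0. The 6 general Schwann cell genes were all below 0, with a median of -0.88. Their sums were 1389, 1216 and 2428 CPM against 268, 775 and 1078 CPM, so the summed levels did not overlap. S100B alone gave 1137 CPM of the sum in FNI replicate 3. It was the 1 gene of the 6 that was lower at an unadjusted p under 0.05 (16.7%, against 7.73% of all genes tested). ERBB3, CDH19 and FOXD3 overlapped between the groups. The 8 myelin genes were also all below 0, with a median of -3.46, though their sums overlapped through FNI replicate 2 and FNI+I-125 replicate 2. The part of the Schwann cell markers in the partner values was not tested. With overlap as the measure, 11 partners were lower without overlap (33.3%, against 12.3%), and the median log2 fold change of the partners was -0.72. With DESeq2 7 partners were lower (against 2.84% of all genes) and 1 higher (against 3.83%) at an adjusted p under 0.05. The list was written with earlier results of these data known, which included the lower level of NFASC, so its count is not independent evidence of a direction.

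The 12 lower partners were ANK2, SPTBN4, NFASC, NRCAM, GLDN, CNTN1, CNTN2, ADAM22, LGI3, EPB41L2, DPP6 and AMIGO1, of which NRCAM, GLDN and NFASC act in adhesion at the node. NRCAM, which gathers sodium channels at the node, had 14.1, 10.5 and 21.9 CPM against 2.75, 5.66 and 4.29 CPM, without overlap (log2 fold change -1.87, SE 0.39, edgeR unadjusted p = 0.00314, adjusted p = 0.28). GLDN, which Schwann cells secrete for the same purpose, had 67.8, 41.6 and 265 CPM against 11.1, 43.6 and 20.8 CPM (log2 fold change -2.31, SE 0.85, edgeR unadjusted p = 0.035), and its log2 fold change was -1.13 without FNI replicate 3. NFASC, whose isoforms lie on the axon at the node and on the Schwann cell beside it, had 59.7, 23.9 and 608 CPM against 5.88, 25.7 and 7.51 CPM. In GLDN and NFASC the value of FNI replicate 2 lay under that of FNI+I-125 replicate 2, so the groups overlapped, and FNI replicate 3 was far above the rest. The log2 fold change of NFASC was -4.14 (SE 1.41, edgeR unadjusted p = 0.0258, adjusted p = 0.28), and -1.69 without FNI replicate 3.

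At the juxtaparanode the partners differed. CNTN2, which with CNTNAP2 holds KCNA channels in place, had 15.5, 22 and 33.2 CPM against 9.22, 14.6 and 7.46 CPM (log2 fold change -1.18, SE 0.38, edgeR unadjusted p = 0.0203), without overlap. CNTNAP2 had 12.8, 25.8 and 2.25 CPM against 4.18, 8.52 and 38.6 CPM (log2 fold change 0.33, SE 1.08), with the lowest library in FNI and the highest in FNI+I-125. ADAM22, a membrane protein found beside KCNA channels, had 10.2, 12.1 and 16.3 CPM against 7.12, 6.21 and 10.1 CPM (log2 fold change -0.72, SE 0.28, edgeR unadjusted p = 0.0426). Its groups did not overlap, though FNI replicate 1 and FNI+I-125 replicate 3 nearly met. LGI3, a secreted ligand of this protein family, had 16.1, 11 and 71.6 CPM against 2.75, 6.03 and 10.2 CPM, with FNI replicate 3 far above the rest (log2 fold change -2.37, SE 0.86, edgeR unadjusted p = 0.0333, and -1.12 without FNI replicate 3). AMIGO1, the auxiliary subunit of KCNB channels, had 31.4, 25.6 and 124 CPM against 10.3, 15.8 and 10.2 CPM (log2 fold change -2.32, SE 0.67, edgeR unadjusted p = 0.0134, and -1.25 without FNI replicate 3), and DPP6, the auxiliary subunit of KCND channels, had 2.81, 1.64 and 5.67 CPM against 0.131, 1.10 and 0.294 CPM (log2 fold change -2.71, SE 0.88, edgeR unadjusted p = 0.0214). Neither overlapped between the groups, while the pore genes KCND1 and KCND3 did. EPB41L3, a membrane scaffold protein, was the 1 partner that was higher, with a log2 fold change of 0.90 (SE 0.26, edgeR unadjusted p = 0.0127).

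The other voltage-gated cation channels served as a comparison. Of 24 listed calcium, HCN and sodium leak channel genes 22 were in the files and 15 were tested, and 0 were higher (against 9.23% of all genes tested) and 0 lower (against 7.73%) at an unadjusted p under 0.05. Likewise 0 were higher without overlap (against 14.8%) and 0 lower (against 12.3%), and the median log2 fold change was -0.13. In a list of 15 genes these background shares come to few genes, so the counts of 0 do not set the list apart. CACNA1S and CACNG1, subunits of the calcium channel of skeletal muscle, were not tested, and CACNA1S stood at 40.8 and 42.7 CPM in FNI+I-125 replicates 1 and 2 and at 0.0587 to 0.351 CPM in the other libraries.

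The 31 channel symbols that missed the count rule were mostly near 0. Of these, 18 reached 10 counts in 0 libraries, 8 in 1 library and 5 in 2 libraries, the last being KCNA2, KCNA7, KCNJ11, KCNH8 and KCNE1. KCNH8 held 13, 8 and 21 counts in FNI and 0, 3 and 0 in FNI+I-125, and KCNE1 held 44, 19 and 4 against 6, 0 and 1. On the other side of the rule, KCNC1, KCNJ6, KCNH1 and KCNMB2 were kept with 3 libraries.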

How the data were processed

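RNA was extracted from whole facial nerve tissue and mRNA selected with oligo dT. The labels name a stranded library kit, and the submitters' processing notes name HISAT2 and the rabbit build OryCun2.0. The counting program and its strand setting are not given in the sources used here, so reads from antisense genes cannot be told apart. The authors deposited raw counts per gene for each of the 6 libraries, without normalization and with replicates kept separate. Symbols for 542 of 2992 LOC identifiers were looked up in RefSeq's gene table, which added 3 channel genes (SCN10A, SCN11A and KCNG2). The names of 25 genes, with 0.188% of the counts, had been turned into dates by a spreadsheet, and these genes stayed in the tests.

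The test was edgeR's quasi-likelihood test (edgeR 4.0.16 in R 4.3.3) with TMM factors and the filterByExpr function at a minimum count of 10. It was two-sided, and the 14003 genes tested entered the Benjamini-Hochberg adjustment. A call needed an adjusted p under 0.05 and a |log2 FC| of 1.5 or more. The biological coefficient of variation was 43% and the median prior degrees of freedom 2.01. For single genes an exact permutation test was run on log2(CPM + 1), whose smallest p is 0.1. DESeq2 1.42.0, limma-voom (limma 3.58.1), other scalings and filters, a replicate block and left-out libraries were the alternatives. The script was tested on simulated counts. Levels were not compared between genes, since transcript lengths were not used here.

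Genes named by rule were every SCN gene kept, in each KCN subfamily the gene with the smallest p and the one with the most counts, the 5 smallest p in each direction, and known channels of nodes, immune cells, vessels and glia. Others are given as chosen after their values were seen. The members and lists were chosen with earlier results of these data known. A few genes chosen this way are not reported here, in the text or the plots, but they stayed in the counts over channel genes and lists.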

Additional observations from a re-analysis of the deposited data

How the results depend on the processing

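With limma-voom, the other scalings, the other filters on low counts and each library left out in turn, 0 channel genes met the call criterion (adjusted p under 0.05 with a |log2 FC| of 1.5 or more). DESeq2 called 2, and also 2 without the fold criterion. The count of channel genes higher at an unadjusted p under 0.05 (5 with edgeR) was 8 with DESeq2 and 1 with upper-quartile normalization. With single libraries left out it ran from 0 without FNI+I-125 replicate 2 and 1 without FNI+I-125 replicate 1 to 5. The count of lower ones (5 with edgeR) was 2 when 10 counts were asked of every library, which left 45 channel genes. It ran from 4 to 11 with single libraries left out. The 11 were reached without FNI+I-125 replicate 2, where 6.03% of all genes were lower. The median log2 fold change ran from -0.25 to 0.08 with single libraries left out. It was -0.28 without FNI+I-125 libraries 1 and 2, left out together after their muscle transcripts were seen. Of the 30 genes named by rule, 21 kept the sign of their log2 fold change in every setting. Without FNI+I-125 libraries 1 and 2 the sign turned for SCN3A (-0.45), SCN4A (-3.38), SCN7A (0.50), KCNC4 (-1.35), KCNK2 (0.19) and KCNMB1 (-0.86). KCNMB1 was -0.07 with limma-voom. With single libraries left out, 6 genes changed sign, namely SCN7A (-1.06 to 0.01), KCNA1 (-1.97 to 0.41), KCND3 (-0.16 to 0.26), KCNH2 (-0.81 to 0.06), KCNK2 (-0.41 to 0.12) and KCNMB1 (-0.79 to 0.53). None of these 6 genes had an unadjusted p under 0.05 in the edgeR fit of all 6 libraries. SCN7A was lower at that threshold without FNI+I-125 replicate 3, and KCNH2 and KCNMB1 were lower without FNI+I-125 replicate 2. The cause was not tested.

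The groups share replicate numbers, and the deviations of same-numbered libraries from their group means correlated at 0.0475, -0.234 and -0.188. With 3 libraries a group, deviations from a group mean depend on each other, so these values cannot settle whether the numbers pair the libraries. With the replicate number as a block, 0 channel genes were called, 6 were higher and 4 lower at an unadjusted p under 0.05, the median log2 fold change was -0.19 and KCNMB1 turned to -0.09.

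Of the 10 channel genes at an unadjusted p under 0.05, KCNS1 kept it in 5 of 6 fits with 1 library left out and SCN4B in 4, while KCNC4, KCNK6 and SCN3B kept it in 1. The counts of KCNS1 were low, and 10 or more were held by 3 FNI libraries but by 1 FNI+I-125 library. KCNMB2 and KCNH1 are left out of this account, since they met the count rule through the FNI libraries alone, the group where they were higher.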
